A study of Mus musculus with 10 samples.

Results

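The genes described here are 9 genes of the distal end of mouse chromosome 7, in the neighbouring Igf2 and Kcnq1 imprinted domains: Igf2, Ascl2, Cd81, Tssc4, Kcnq1, Cdkn1c, Slc22a18, Phlda2 and Nap1l4. They were chosen by name, with earlier results of these data known, as were the gene lists below. Every probe set that the array's annotation pairs with exactly 1 of these 9 symbols was taken, which gave 13 of 45101 probe sets and 9 of 18193 genes with a symbol. Affymetrix GeneChip mouse arrays had been hybridised with RNA of 3 groups of mouse cells. The AG-haESC group holds 5 haploid embryonic stem cell lines from androgenetic blastocysts, whose genome is paternal only, of C57BL/6J genotype at passages 12 to 15, with an Oct4-EGFP transgene in 4 lines and an Actin-EGFP transgene in AG-haESC replicate 3. They were grown on feeder cells with the inhibitors CHIR99021 and PD0325901. E14 is a wild-type diploid male embryonic stem cell line of 129/Sv genotype at passage 17, on 3 arrays. MEF are wild-type B6D2F1 fibroblasts of a male d13.5 embryo at passage 2, on 2 arrays. Sorting by DNA content, with Hoechst 33342 as the dye (15 µg/ml), took the 1n peak for AG-haESC and the 2n peak for E14 and MEF. The E14 arrays are all of that line, so their spread holds no difference between diploid lines, and the labels do not say whether the MEF arrays came from separate embryos. Ploidy, parental origin, strain and EGFP transgenes all differ between AG-haESC and E14 and cannot be told apart in this design. The sources used here do not give the medium in which E14 grew.

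Genomic imprinting is the expression of a gene from the copy of only 1 parent, set by DNA methylation laid down in the germ line. On distal chromosome 7 a methylated control region near H19 directs enhancers to Igf2 on the paternal chromosome. A separate control region inside Kcnq1 is the promoter of Kcnq1ot1, a long noncoding RNA made from the paternal copy, and on that copy Cdkn1c, Phlda2, Slc22a18, Ascl2 and Kcnq1 are silenced, so that these genes are expressed mainly from the maternal copy. Cd81 and Tssc4 lie between Ascl2 and Kcnq1ot1, and Nap1l4 lies beyond Phlda2. Imprinting of Ascl2, Cd81, Tssc4 and Nap1l4 is known mainly from the placenta. Setting AG-haESC beside E14 asks how the cluster is expressed in stem cells that have no maternal copy of it.

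Values are log2 of the deposited signal, and a gene's own probe set is the brightest kept one. The array median, between 5.81 and 6.09 on the log2 scale, serves as the level below which signals hold much background. A probe set was kept if it exceeded the median of its array in at least 2 arrays, and a gene is called changed if its adjusted p is below 0.05 and its difference at least 2-fold. Of the 9 genes, 8 were tested. Kcnq1 was below the array median in all 10 arrays and was not tested. Slc22a18 passed the filter through the E14 arrays alone, so its difference from the other groups is partly set by the filter. The pluripotency markers were above the array median in 9 of 9 cases in every AG-haESC and E14 array, and 7 of the 9 lay below it in both MEF arrays, where 12 of 12 fibroblast markers were above it. E14 replicate 3 stood apart from the other E14 arrays: the median gene differed by 0.45 and 0.48 log2 units between it and E14 replicates 1 and 2, against 0.18 between those, and results that involve E14 are therefore also given without it.

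In AG-haESC, 3 of the 8 tested genes were lower than in E14 and 0 were higher by limma with Benjamini-Hochberg adjustment, where 8.32% of all 13251 genes were called, 3.74% lower and 4.58% higher. The 3 were Phlda2, Cdkn1c and Slc22a18. The median difference of the 8 genes was -0.16 log2 units, beside -0.082 over all genes. With an unadjusted p below 0.05 and the same 2-fold minimum, Ascl2 would be added, with a higher mean in AG-haESC. Nap1l4 also had an unadjusted p below 0.05, at 1.27-fold. The arrays of the groups did not overlap for the same 3 genes, where 22.6% of all genes showed no overlap. Without E14 replicate 3, 2 genes were lower and 0 higher, and 10.2% of all genes were called.

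Promoter windows of 250 bases before the transcription start were read from RefSeq (GRCm38.p6) for 6 of the 9 genes, 9 windows in all. Cdkn1c, Kcnq1 and Nap1l4 had none in the table. The windows below are shown because Phlda2 and Slc22a18 lie next to each other and were both called lower in AG-haESC, the latter by a call that rests on few arrays, while Igf2 has 4 listed starts whose windows differ most in CpG, the dinucleotide that DNA methylation acts on in mammals. Capitals mark CpG, and all windows are on the strand of the gene. Phlda2 lies at chr7:143502525-143502774 on the minus strand, Slc22a18 at chr7:143473539-143473788 on the plus strand, and the Igf2 windows at chr7:142658805-142659054 and chr7:142666817-142667066 on the minus strand.
Phlda2: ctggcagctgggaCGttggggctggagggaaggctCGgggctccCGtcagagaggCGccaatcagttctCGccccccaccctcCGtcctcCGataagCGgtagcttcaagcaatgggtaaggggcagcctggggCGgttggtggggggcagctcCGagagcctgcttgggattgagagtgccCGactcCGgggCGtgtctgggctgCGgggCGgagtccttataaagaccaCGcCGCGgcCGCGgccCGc
Slc22a18: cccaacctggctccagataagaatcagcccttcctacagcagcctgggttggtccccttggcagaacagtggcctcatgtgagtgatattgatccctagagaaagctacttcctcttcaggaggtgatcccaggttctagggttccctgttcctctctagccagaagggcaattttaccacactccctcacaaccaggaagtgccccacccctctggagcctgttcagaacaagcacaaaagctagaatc
Igf2 start with most CpG: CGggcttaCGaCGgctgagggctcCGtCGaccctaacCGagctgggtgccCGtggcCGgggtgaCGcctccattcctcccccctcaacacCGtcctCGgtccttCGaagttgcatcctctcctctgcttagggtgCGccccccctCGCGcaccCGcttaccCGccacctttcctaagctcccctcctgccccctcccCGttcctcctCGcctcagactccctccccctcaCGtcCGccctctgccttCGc
Igf2 start with fewest CpG: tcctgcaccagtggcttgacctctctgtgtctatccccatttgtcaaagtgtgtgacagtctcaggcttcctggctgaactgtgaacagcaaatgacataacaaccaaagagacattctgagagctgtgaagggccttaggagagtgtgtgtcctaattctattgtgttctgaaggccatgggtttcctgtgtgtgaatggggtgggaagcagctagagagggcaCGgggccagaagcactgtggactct
The Phlda2 window held 21 CpG, more than 83.7% of the 32851 windows in the table, and the Slc22a18 window held 0, so the windows of these neighbours differ widely in CpG content. The Igf2 windows held 1, 6, 10 and 22 CpG, Ascl2 held 19, Cd81 held 16 and Tssc4 held 17, against a median of 6 over all windows. TATAAA on either strand occurred in the Phlda2 window alone among the 9, against 12.4% of all windows, and GGGCGG on either strand in 5 of the 9, against 32.7%. A match is a description of these letters only.

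Phlda2, a small pleckstrin-homology protein that restrains placental growth, was the most clearly separated member. It read 8.24, 9.06, 9.12, 9.35 and 9.08 in AG-haESC replicates 1 to 5 on the log2 signal scale. The E14 arrays read 11.62, 11.51 and 12.36, and the MEF arrays 6.49 and 6.37. All AG-haESC arrays thus lay between the E14 and the MEF arrays, with no overlap between any pair of groups. The mean was 8.97 ± 0.42 (SD, n = 5) in AG-haESC and 11.83 ± 0.46 (SD, n = 3) in E14, a difference of -2.86 ± 0.26 (SE; 95% interval -3.43 to -2.29), which is 7.27-fold lower (limma adjusted p = 5.98e-05). It was 6.05-fold lower without E14 replicate 3. Leaving out any 1 array kept the difference between -3.02 and -2.60. Against MEF at 6.43 ± 0.082 (SD, n = 2), Phlda2 was 5.80-fold higher in AG-haESC (2.54 ± 0.30, limma adjusted p = 2.31e-05) and 42.2-fold higher in E14 (5.40 ± 0.33, limma adjusted p = 1.83e-07). The haploid lines were therefore lower than E14 without falling to the level of the fibroblasts.

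Cdkn1c encodes p57, an inhibitor of cyclin-dependent kinases that holds back the cell cycle in the embryo. It read 5.86, 5.97, 6.20, 7.67 and 5.74 in AG-haESC replicates 1 to 5, with replicates 2 and 5 below their array medians. The E14 arrays read 8.24, 8.14 and 10.76, and the MEF arrays 12.02 and 11.60. MEF was thus highest and AG-haESC lowest, with no overlap, while Phlda2 was lowest in MEF. The mean of 6.29 ± 0.79 (SD, n = 5) in AG-haESC was 6.76-fold below the 9.04 ± 1.5 (SD, n = 3) in E14, a difference of -2.76 ± 0.59 (SE; 95% interval -4.05 to -1.46; limma adjusted p = 0.0095). E14 replicate 3 carries much of this size: without it the gene was 3.74-fold lower (-1.90 ± 0.44, limma adjusted p = 0.0119). Against MEF at 11.81 ± 0.30 (SD, n = 2), Cdkn1c was 45.9-fold lower in AG-haESC (-5.52 ± 0.68, limma adjusted p = 3.04e-05). Most AG-haESC arrays lay near their array medians, where signals hold much background. With a pseudocount of 32 added to the signal, Cdkn1c in AG-haESC differed by -2.34 from E14 and by -5.01 from MEF. In E14 it was 6.79-fold lower than in MEF (-2.76 ± 0.74, limma adjusted p = 0.00738), or 12.3-fold without E14 replicate 3, and this call was lost without MEF replicate 1 (-2.55, limma adjusted p = 0.0552).

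Slc22a18, an organic cation transporter of the membrane, lies between Cdkn1c and Phlda2. On its kept probe set it read 3.87, 4.55, 5.88, 4.73 and 4.09 in AG-haESC, all below the array medians. The E14 arrays read 6.40, 7.13 and 6.37, all just above them, and the MEF arrays 5.47 and 3.43, below them. AG-haESC was at least 1.60-fold lower than E14 when put at the array medians, with measured means of 4.62 ± 0.78 (SD, n = 5) and 6.64 ± 0.43 (SD, n = 3) and limma adjusted p = 0.0394. That call rests on few arrays, since leaving out AG-haESC replicate 1, 2, 4 or 5, or any E14 array, lost it, with limma adjusted p up to 0.147, and at 0.051 without E14 replicate 3. With signals floored at the array median the difference was -0.68, below 2-fold. The other probe set of Slc22a18 was below the array median in all 10 arrays, at 1.64 to 4.34 in AG-haESC and 3.66 to 5.59 in E14.

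**Figure D1:**
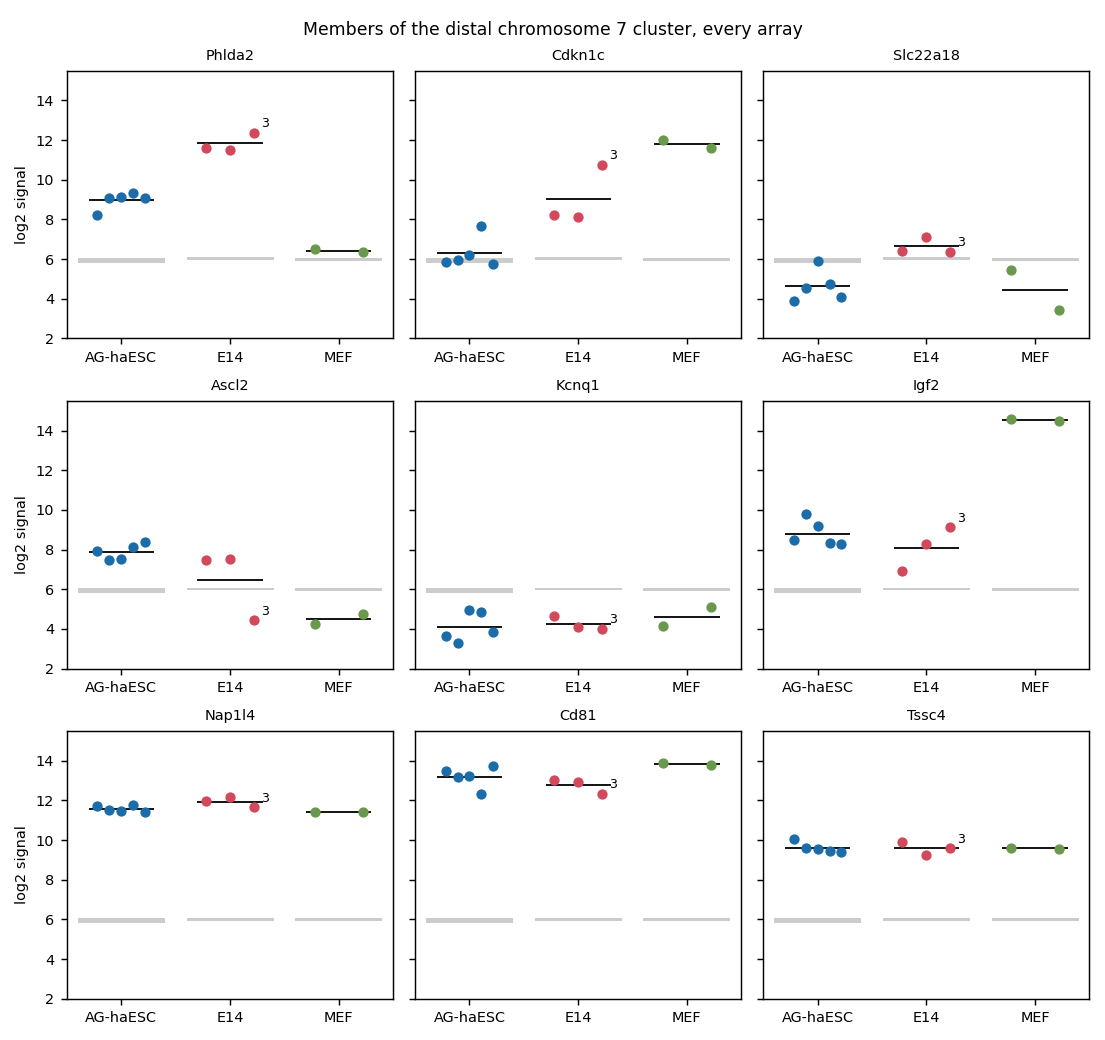
The log2 signal of the 9 genes is plotted for every array (points, numbered 3 for E14 replicate 3) in the 3 groups, with the group mean as a black line and the range of the array medians as a grey band. Phlda2 reads 8.24 to 9.35 in AG-haESC against 11.51 to 12.36 in E14, Kcnq1 lies below the band in every array, and Igf2 stands at 14.50 and 14.59 in MEF.

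Ascl2, a basic helix-loop-helix factor needed for the trophoblast of the placenta, went the other way on its brightest probe set. It read 7.94, 7.49, 7.52, 8.15 and 8.40 in AG-haESC and 7.48, 7.51 and 4.43 in E14, so that the gap between the groups lay in E14 replicate 3, below its array median, while the other E14 arrays were at the lower edge of the AG-haESC range. The difference of 1.43 ± 0.61 did not pass (limma adjusted p = 0.136), and without E14 replicate 3 it was 0.41 ± 0.31 (limma adjusted p = 0.37). The other probe sets differed by 0.21 ± 0.48 and 0.66 ± 0.51 and did not pass either (limma adjusted p = 0.829 and 0.45). In MEF Ascl2 read 4.24 and 4.73, below the array medians, and was at least 3.78-fold lower than in AG-haESC (limma adjusted p = 0.00128). All 3 probe sets of Ascl2 were called higher in AG-haESC than in MEF, though the bounds of the less bright ones were 1.39-fold and 1.58-fold. Each of the 3 passed the filter through stem cell arrays alone. Differences from MEF were thus partly set by the filter, and the further probe sets are no further support. Between E14 and MEF the bound was 1.40-fold (limma adjusted p = 0.0421), and that call was lost when any 1 array other than E14 replicate 3 was left out, with limma adjusted p from 0.0531 to 0.176. Without E14 replicate 3 the measured difference was 3.01 ± 0.37 (limma adjusted p = 3.72e-05), which is no fold, since MEF was below the array medians.

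Kcnq1, a potassium channel subunit of heart and epithelia, read 3.30 to 4.93 in AG-haESC, 4.01 to 4.64 in E14 and 4.14 to 5.09 in MEF, all below the array medians. With no filter on low values it differed by -0.14 ± 0.56 between AG-haESC and E14 (limma adjusted p = 0.914 over 18193 genes), but signals below the array medians give no fold here.

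Kcnq1ot1 is no member and is named after its values were seen, because it is the noncoding RNA whose transcription accompanies silencing in the domain. Its brightest probe set read 8.78, 9.25, 8.91, 8.48 and 9.13 in AG-haESC against 7.59, 7.85 and 8.36 in E14 and 8.05 and 8.21 in MEF. Every AG-haESC array was above every E14 and MEF array. The difference from E14 of 0.97 ± 0.23 passed the adjusted p (limma adjusted p = 0.0146) and fell just short of 2-fold. It was 1.19 without E14 replicate 3 (limma adjusted p = 0.00401) and 1.05 with array medians aligned, where it was called. Without E14 replicate 1 or E14 replicate 2 it did not pass (0.80 and 0.93, limma adjusted p = 0.0717 and 0.056). Of the other probe sets of Kcnq1ot1, the next brightest differed by 0.67 ± 0.23 (limma adjusted p = 0.0753), the remaining kept ones by 0.57 ± 0.75 and 0.66 ± 0.55 (limma adjusted p = 0.67 and 0.48), and 2 were below the array median in all 10 arrays.

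**Figure D2:**
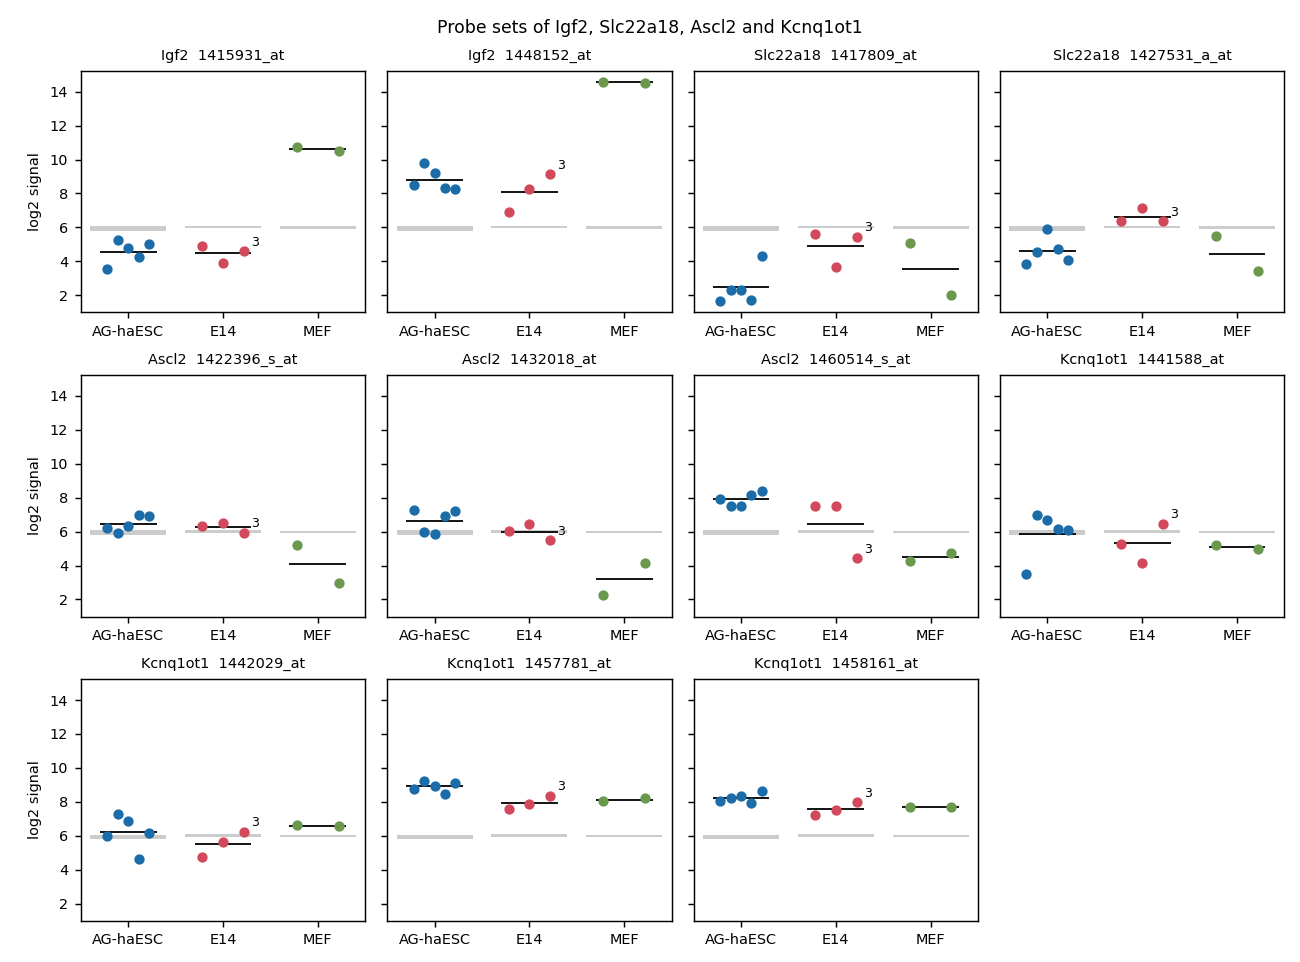
The log2 signal of each array (points, numbered 3 for E14 replicate 3) is plotted for every probe set of Igf2, Slc22a18 and Ascl2 and the 4 kept probe sets of Kcnq1ot1, with group means as black lines and array medians as grey bands. Both Igf2 probe sets are far higher in MEF. E14 replicate 3 is the lowest E14 array on all 3 Ascl2 probe sets, at 5.94, 5.49 and 4.43, and far below the others on the last alone.

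Igf2, the fetal growth factor expressed from the paternal copy, was not called between AG-haESC and E14. It read 8.47, 9.77, 9.20, 8.31 and 8.27 in AG-haESC and 6.92, 8.27 and 9.12 in E14, and the groups overlapped. The means were 8.80 ± 0.66 (SD, n = 5) and 8.10 ± 1.1 (SD, n = 3), a difference of 0.70 ± 0.46 (95% interval -0.30 to 1.70; limma adjusted p = 0.327). It was 1.21 ± 0.43 without E14 replicate 3 (limma adjusted p = 0.0658), and with array weights 1.52, where it was called higher (limma adjusted p = 0.0103). The MEF arrays read 14.59 and 14.50, so that Igf2 was 53.5-fold lower in AG-haESC (-5.74 ± 0.52, limma adjusted p = 3.10e-06) and 87.2-fold lower in E14 (-6.45 ± 0.57, limma adjusted p = 3.03e-06), or 124-fold lower in E14 without E14 replicate 3. The other Igf2 probe set read 10.72 and 10.52 in MEF and lay below the array median in all 8 stem cell arrays, which made it at least 25.3-fold lower in AG-haESC and at least 23.9-fold lower in E14 by the bound. That probe set passed the filter through the MEF arrays alone, so a difference from MEF was partly set by the filter, and its p-values are no further support.

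Fibroblast markers were read beside Igf2, since MEF hold so much of it. AG-haESC grew on feeder cells and were sorted at the 1n peak, and whether feeder cells remained after the sort was not tested. Of 12 fibroblast markers 6 were higher in AG-haESC than in E14 and 0 lower, where 4.58% of all genes were called higher and 3.74% lower. Of the 12, 3 (Col1a1, Lum and Postn) were below the array median in every E14 array, while none was in every AG-haESC array. The summed signal of all 12 was 9.85% to 13.7% of the MEF mean in AG-haESC and 8.46% to 11.0% in E14, but Vim and Fn1, which both stem cell groups express, made up 69.5% to 94.4% of it. Without these 2, a choice made after the values were seen, the sum was 1.67%, 5.91%, 3.73%, 1.95% and 3.57% of MEF in AG-haESC replicates 1 to 5 and 0.819%, 0.933% and 1.2% in E14. Of the rest, Col1a2 and Col3a1 were brightest in AG-haESC (means of 10.81 and 9.68), so they weigh most in that sum. Pdgfra and Pdgfrb were not among the 6 called, with means of 6.42 and 7.32 in AG-haESC against 6.39 and 8.05 in E14. Igf2 stood at 1.49%, 3.65%, 2.45%, 1.32% and 1.29% of MEF in the same AG-haESC lines and at 0.505%, 1.29% and 2.32% in E14. The line with the highest marker sum, AG-haESC replicate 2, also had the highest Igf2 signal, while AG-haESC replicate 5 had a marker sum close to that of replicate 3 and the lowest Igf2. The part of fibroblast RNA in the Igf2 signal was not tested. In bulk RNA, fewer cells of a type and less RNA per cell cannot be told apart.

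**Figure D3:**
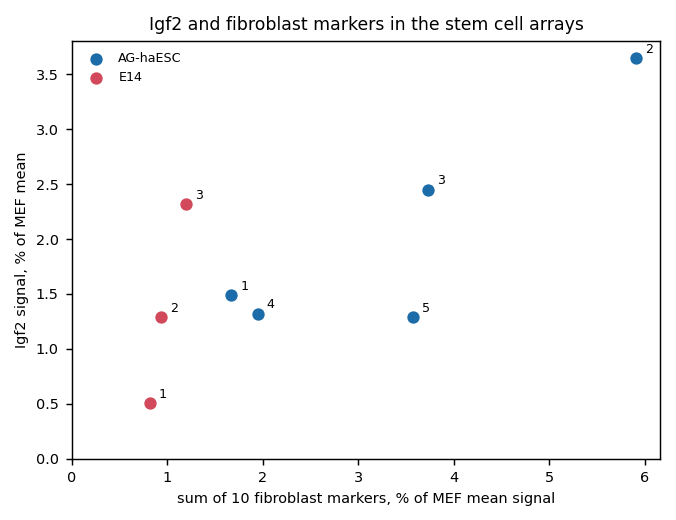
The Igf2 signal is plotted against the summed signal of 10 fibroblast markers (Vim and Fn1 left out), both as a percent of the MEF mean on a linear scale, for each AG-haESC and E14 array (points, numbered by replicate). AG-haESC replicate 2 is highest on both axes at 5.91% and 3.65%, and E14 replicate 1 lowest at 0.819% and 0.505%.

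The trophoblast is the tissue in which several of these genes act, and of 7 tested trophoblast markers 1, Gata3, was higher in AG-haESC than in E14 and 0 were lower. Over all genes, 4.58% were called higher and 3.74% lower. From the list of 13, Cdx2, Elf5 and Tpbpa failed the filter on low values and were not tested. Gcm1, Prl3d1 and Prl2c2 had no probe set with their symbol alone. Gata3, a factor of the trophectoderm named here for its change, was at 7.60 ± 0.75 (SD, n = 5) against 2.20 ± 2.0 (SD, n = 3), below the array median in every E14 array. The summed signal of the list ranged from 4283 to 9273 in AG-haESC, from 3006 to 4307 in E14 and from 856 to 1279 in MEF. Its brightest members, Krt18, Tfap2c and Krt8, were above the array median in every AG-haESC and E14 array. They differed by 1.00 ± 0.38, 0.57 ± 0.29 and 0.82 ± 0.58 and did not pass (limma adjusted p = 0.102, 0.213 and 0.369). Their part in the Ascl2, Phlda2 and Cdkn1c signals was not tested. Of 6 tested endoderm markers 1 was higher in AG-haESC, and 0 of 6 muscle and 0 of 5 macrophage markers were called between the stem cell groups at an adjusted p below 0.05 and 2-fold.

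Nap1l4, Cd81 and Tssc4 are widely expressed genes of the Kcnq1 domain, and none was called between AG-haESC and E14. Nap1l4, a histone chaperone, read 11.44 to 11.76 in AG-haESC and 11.99, 12.15 and 11.67 in E14, with overlap through E14 replicate 3. Its difference of -0.35 ± 0.13 (limma adjusted p = 0.0941) was -0.48 ± 0.12 without that array and passed the adjusted p (limma adjusted p = 0.0168), at 1.39-fold. Cd81, a tetraspanin of the cell surface, read 12.32 to 13.74 in AG-haESC and 12.34 to 13.05 in E14, a difference of 0.41 ± 0.27 (95% interval -0.18 to 0.99; limma adjusted p = 0.334). Cd81 read 13.90 and 13.80 in MEF and was 2.11-fold lower in E14 than there (-1.08 ± 0.33, limma adjusted p = 0.0167), which fell to 1.81-fold without E14 replicate 3. Without either MEF array that call was lost (limma adjusted p = 0.0846 and 0.0625). In AG-haESC the difference from MEF was -0.67 ± 0.31 (limma adjusted p = 0.0802). Tssc4 differed least, at 9.62 ± 0.26 (SD, n = 5), 9.58 ± 0.35 (SD, n = 3) and 9.59 ± 0.036 (SD, n = 2) in AG-haESC, E14 and MEF, with a difference of 0.036 ± 0.19 between the stem cell groups (95% interval -0.39 to 0.46).

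Against the fibroblasts, the cluster moved in both directions. In AG-haESC, 2 of the 8 tested genes were higher (Phlda2 and Ascl2) and 2 lower (Igf2 and Cdkn1c) than in MEF, 4 in all, where 42.2% of all genes were called (19.7% higher and 22.5% lower), so the share of called members was near that of all genes. The arrays did not overlap for 6 of the 8, where 70.3% of all genes showed no overlap. In E14, 3 were higher (Phlda2, Slc22a18 and Ascl2) and 3 lower (Igf2, Cdkn1c and Cd81), 6 of 8, where 42.1% of all genes were called (20.9% higher and 21.3% lower). Of these, 5 were called without E14 replicate 3, where 41.8% of all genes were called. Leaving out either MEF array lowered the number of called members, and that of all called genes as well. The arrays did not overlap for 6 of 8 genes, where the share over all genes was 73.9%. Slc22a18 was at least 1.57-fold higher in E14 than in MEF (limma adjusted p = 0.0245), and that call was lost without E14 replicate 2 or MEF replicate 2 (limma adjusted p = 0.0755 and 0.261). Both comparisons share the MEF arrays, and those of AG-haESC share its lines. By probe set, 0 of 11 kept were higher and 3 lower in AG-haESC than in E14, where 7.26% of all kept probe sets were called (4.37% higher and 2.89% lower) and 20.2% had no overlap. Against MEF, 4 were higher and 3 lower in AG-haESC, where 39.2% were called (19.2% higher and 20% lower), and 9 had no overlap, where 65% had none. In E14, 5 were higher and 4 lower than in MEF, where 38.9% were called (19.8% higher and 19.1% lower), and 9 had no overlap, where 69.9% had none. This last count of calls fell when either MEF array was left out.

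Along the chromosome, 34 genes of the region and its flanks were tested, of which 4 were lower in AG-haESC than in E14 and 0 higher, where 3.74% of all genes were called lower and 4.58% higher. Of the 4, 3 were Cdkn1c, Slc22a18 and Phlda2, which follow each other in that order among the measured genes, between Kcnq1ot1 on one side and Nap1l4 on the other. The Slc22a18 call in this run depends on few arrays, as given above, and is lost without any 1 of 7 of them. Of 11 tested genes from a list of 15 others in the imprinted region, 0 were called in either direction by limma. At an unadjusted p below 0.05, the 95% intervals of Ins2, Kcnq1ot1, Dhcr7 and Nadsyn1 left out 0, at differences of 1.68, 0.97, -0.90 and -0.79. Without E14 replicate 3, 1 of the list was called higher and 2 lower, where 684 of all 13251 genes were called higher and 666 lower. The median of that list was 0.07 log2 units, beside -0.082 over all genes. Of 15 genes beside the region, the 1 called was Fgf15, a fibroblast growth factor gene farther along the same chromosome, at least 4.18-fold lower in AG-haESC (4.88 ± 0.66, n = 5, against 8.02 ± 0.83, n = 3; limma adjusted p = 0.00253). Like Slc22a18, Fgf15 passed the filter through the E14 arrays alone, so its difference is partly set by the filter. H19 is not reported, as no probe set is its alone.

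**Figure D4:**
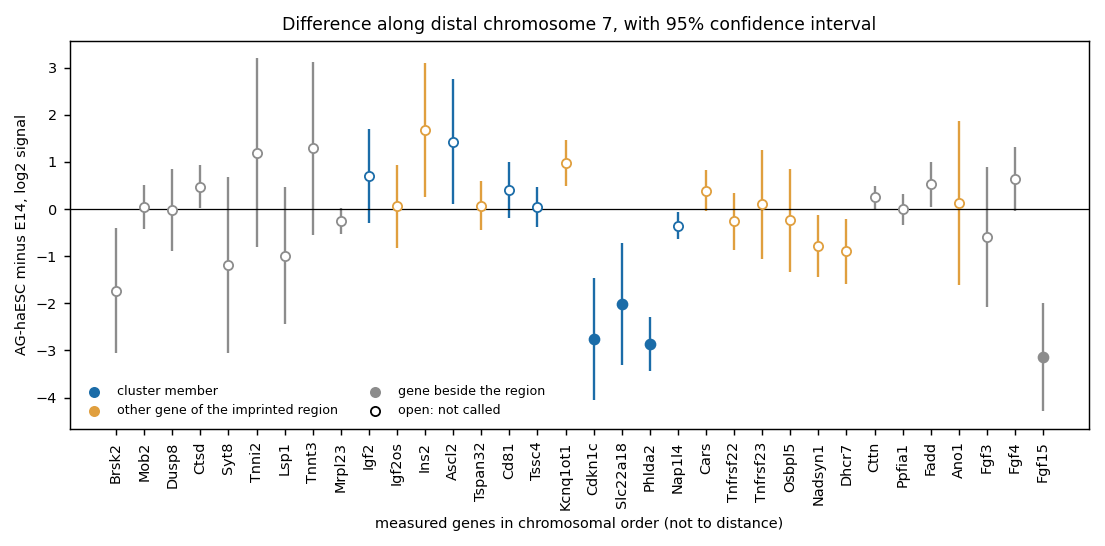
The difference of AG-haESC minus E14 in log2 signal is plotted for the 34 tested genes in chromosomal order, not to distance, with 95% confidence intervals; filled points are called and open points are not. Cdkn1c, Slc22a18 and Phlda2 stand together at -2.76, -2.01 and -2.86, and Fgf15 is the only other filled point, at -3.14.

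Among the 5 haploid lines the members varied unequally. Cdkn1c had an SD of 0.789 log2 units over the lines, larger than that of 90.1% of tested genes, with AG-haESC replicate 4 at 7.67 and the others at 5.74 to 6.20. Igf2 had an SD of 0.656 (larger than 86.1% of genes), highest in AG-haESC replicate 2, and Cd81 0.533 (79.5%), lowest in AG-haESC replicate 4. Phlda2 had an SD of 0.423, and Nap1l4 the smallest, 0.148 (15.7%). The median gene had an SD of 0.29. The Actin-EGFP line read inside the range of the 4 Oct4-EGFP lines for every tested member but Slc22a18, where it read 5.88 against 3.87 to 4.73, below its array median in any case.

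Igf2 acts through the receptors Igf1r and Insr, is cleared by Igf2r and is held by binding proteins, and these partners were read from a list of 19 genes, of which 17 were tested. Between AG-haESC and E14, 3 were higher and 1 lower, where 4.58% of all genes were called higher and 3.74% lower. The list median was -0.020 log2 units beside -0.082 over all genes. Htra1, a secreted protease that can cleave binding proteins, was at 11.79 ± 0.59 (SD, n = 5) against 8.43 ± 0.39 (SD, n = 3), a difference of 3.36 ± 0.30 (limma adjusted p = 5.24e-05). Igfbp7 was higher by 1.29 ± 0.34 (limma adjusted p = 0.0246), and by 0.27 with the mean of its probe sets, where it did not pass (limma adjusted p = 0.617). Leaving out E14 replicate 1, E14 replicate 2 or AG-haESC replicate 3 also lost the call (limma adjusted p up to 0.104). The adaptor Irs2 was higher by 2.19 ± 0.68 (limma adjusted p = 0.0482), a call lost when any 1 array but E14 replicate 3 was left out (limma adjusted p up to 0.137). Without E14 replicate 1 its difference was 1.14. The adaptor Irs1 was lower by -1.06 ± 0.21 (limma adjusted p = 0.00669), and by -0.96, short of 2-fold, without E14 replicate 3. Also short of it were -0.74 with a pseudocount, -0.79 with signals floored at the array median, -0.98 with array medians aligned and -0.89 with array weights. Irs1 was above the array median in 1 of 5 AG-haESC arrays. The receptors Igf1r, Insr and Igf2r differed by -0.44 ± 0.18, 0.15 ± 0.33 and -0.21 ± 0.29 and did not pass (limma adjusted p = 0.125, 0.794 and 0.66). Against MEF, 12 of the 17 were lower and 2 higher in AG-haESC, where 22.5% of all genes were called lower and 19.7% higher. In E14, 14 were lower and 2 higher, where the shares were 21.3% and 20.9%. The 2 higher in both were Igfbp2 and the mRNA-binding gene Igf2bp1, and the binding protein Igfbp5 was among the lower, by -7.79 ± 0.40 in AG-haESC and -7.77 ± 0.44 in E14 (limma adjusted p = 3.88e-08 and 1.10e-07).

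Factors that hold imprints or silence in cis were mostly not called between the stem cell groups. Of 17 tested from a list of 18, 2 were higher in AG-haESC and 0 lower, where 4.58% of all genes were called higher and 3.74% lower. The list median was -0.17. The 2 were Plagl1, a zinc finger regulator of imprinted genes that is itself paternally expressed (3.51 ± 0.18, limma adjusted p = 1.41e-06), and Dppa3, which protects methylation in the early embryo (1.83 ± 0.35, limma adjusted p = 0.00555). The insulator factor Ctcf differed by -0.17 ± 0.15, the imprint-binding factor Zfp57 by 0.90 ± 0.38, its partner Trim28 by -0.26 ± 0.10 and the methyltransferase Dnmt1 by -0.37 ± 0.13, and these did not pass (limma adjusted p = 0.498, 0.13, 0.106 and 0.0795). The Polycomb subunit Suz12 passed the adjusted p at 0.42 ± 0.098 (limma adjusted p = 0.015), below 2-fold. Without E14 replicate 3, 4 of the list were higher, where 684 of all 13251 genes were called higher.

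Relatives of the members at other loci were read to set each beside its family. Of 13 tested paralogs, 3 were higher in AG-haESC than in E14 and 0 lower, where 4.58% of all genes were called higher and 3.74% lower. The list median was 0.19. The other inhibitors of the family of Cdkn1c, Cdkn1a and Cdkn1b, differed by 0.16 ± 0.49 and -0.13 ± 0.20 (limma adjusted p = 0.861 and 0.695), and the relatives of Phlda2, Phlda1 and Phlda3, by 0.93 ± 0.31 and 0.25 ± 0.53 (limma adjusted p = 0.061 and 0.793). The 3 higher were relatives of Nap1l4: the X-linked Nap1l2 and Nap1l3, by 1.73 ± 0.26 and 1.49 ± 0.36, and Nap1l5 of chromosome 6, an imprinted gene expressed from the paternal copy, by 1.58 ± 0.29 (limma adjusted p = 0.00127, 0.0164 and 0.00453). The tetraspanin Cd9, a relative of Cd81, was 0.77 ± 0.13 higher with limma adjusted p = 0.00238, below 2-fold.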

How the data were processed

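RNA had been measured on 10 arrays in 3 groups, and the groups were taken from the sample labels. The authors deposited signal intensities per probe set, made with MAS5 per the submitters' processing notes, on a linear scale with a 2% trimmed mean of 500 in every array. The sources used here give neither the scanner software nor detection calls. This scaling hides a change in total RNA per cell, and low intensities hold much background. The analysis used log2 intensities. Of 45101 probe sets, 64 controls were left out, 34945 paired with 1 symbol, 932 with several and 9160 with none listed. Array medians were 55.9 to 68.0 on the linear scale. Probe sets above the array median in at least 2 arrays (27505) were kept, and the brightest per gene gave 13251 genes. Genes, and separately all kept probe sets, went into limma 3.58.1 (R 4.3.3) as 3 group means, leaving 7 residual degrees of freedom, with the prior variance trended on mean signal. All p-values are two-sided, Benjamini-Hochberg adjusted over all genes or probe sets. Where the dimmer group lay below its array medians in every array, a fold is a bound with that group at the medians. The fit was tested on simulated data. Alternatives covered the filter, pseudocount, floor, normalization, probe sets, prior, array weights, groups in the fit, a replicate block and leaving out each array, with the same genes kept where an array was left out. The number of arrays limits the precision, and p-values measure only the spread between these arrays.

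The members and gene lists were chosen with earlier results of these data known. H19 shares its probe set with Mir675 on these arrays. From the lists, the genes named were those called between AG-haESC and E14, at most 6 a list, the 3 brightest of each marker list, and the 3 nearest profiles of Igf2, Cdkn1c, Phlda2 and Ascl2, besides genes named as chosen after their values were seen and family or pathway members given with their values. Symbols and gene order came from RefSeq's gene table of GRCm38.p6 and the array's annotation table.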

Additional observations from a re-analysis of the deposited data

Results flagged for a closer look

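In 13 probe sets, the 5 AG-haESC arrays were examined for a line far from the others, which chance gives in about 1 of 20 groups. In Cdkn1c, AG-haESC replicate 4 read 7.67 against 5.74 to 6.20 in the other lines. In Phlda2, AG-haESC replicate 1 read 8.24 against 9.06 to 9.35. In the Slc22a18 probe set that was below the array median in all 10 arrays, AG-haESC replicate 5 read 4.34 against 1.64 to 2.32. Without the lines named for Cdkn1c and Phlda2 both genes were still called lower than in E14. Groups of 3 and 2 arrays were not examined in this way.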

How the results depend on the processing

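Of 464 recomputed differences of the members, 420 kept their direction and their side of the threshold, 31 lost the call, 1 gained it and 12 changed sign. Those that changed sign were uncalled differences near 0. For Tssc4 they were -0.04 (AG-haESC against E14) and 0.11 (E14 against MEF) with array weights and 0.12 (E14 against MEF) with quantile normalization, and leaving out 1 array gave -0.14 to 0.21 against E14, -0.09 to 0.08 for AG-haESC against MEF and -0.18 to 0.16 for E14 against MEF. For Slc22a18 in AG-haESC against MEF the floor gave -0.03, and leaving out 1 array -0.85 to 1.19. The members called between AG-haESC and E14 numbered 4 with array weights, where Igf2 was added, and 2 to 3 when 1 array was left out. Between E14 and MEF they numbered 6, and 3 to 5 when 1 array was left out, with 5 to 8 of 9 probe sets. Of the 5 other lists, 10 genes were called between AG-haESC and E14, 16 with array weights and 8 to 16 when 1 array was left out, the 16 without E14 replicate 3. Over all genes 1102 were called, 1707 with array weights and 1350 without E14 replicate 3. Aligning array medians gave 692 higher and 386 lower, against 607 and 495. Where MEF was left with 1 array, that array was assumed to vary like the other groups. E14 and MEF share the replicate numbers 1 and 2, and with these as a replicate block 5 members were called, with Cd81 at -0.86, in arrays without E14 replicate 3. Deviations of same-numbered arrays correlated at -0.0264 across genes, a single value that cannot show whether these arrays share more than a number. The cause of these changes was not tested.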

Other observations

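Genes with the most alike profile were found as those with the smallest root mean square difference of the centred log2 signal over the 10 arrays, a description with no test. For Phlda2 these were Fgf15 (0.47 log2 units, below the array median in every AG-haESC and MEF array), Nphs1 (0.52) and Mnd1 (0.57), the first 2 also on chromosome 7. For Cdkn1c they were Bmp4 (0.68), a morphogen of the early embryo, Foxp1 (0.71) and LOC102631979 (0.78). For Igf2 they were Bgn (0.29), a matrix proteoglycan, Thy1 (0.29), a surface marker of fibroblasts, and Nrp1 (0.42). For Ascl2 they were Hoxb13 (0.37), Slc1a1 (0.45) and Crtac1 (0.45), with means in AG-haESC of 7.96, 7.60 and 7.27 against 5.98, 6.47 and 5.95 in E14. Their means in MEF, 4.48, 4.43 and 3.42, were below the array medians, where signals hold much background.

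Among the imprint control factors, 9 of 17 were higher in AG-haESC than in MEF and 0 lower, and 10 were higher and 1 lower in E14. Over all genes, 19.7% were called higher and 22.5% lower in AG-haESC than in MEF, and 20.9% and 21.3% in E14. Dnmt3l, a cofactor of de novo methylation, was at 11.98 in AG-haESC and 11.23 in E14 against 3.80 in MEF, and Dppa3 at 12.34 and 10.51 against 4.98 (means of log2 signal). Beside the same shares over all genes, of the 11 tested other genes of the imprinted region 1 was higher and 3 lower in AG-haESC than in MEF. In E14, 2 of the 11 were higher and 3 lower. The lower ones were the same in both: Osbpl5 (-6.23 and -6.00), Igf2os (-2.66 and -2.71) and Ano1 (-3.27 and -3.40), given as measured log2 differences. Osbpl5 and Igf2os were below the array median in all 8 stem cell arrays and passed the filter through MEF alone. Dhcr7 was higher in E14 than in MEF by 1.27 ± 0.39 (limma adjusted p = 0.0158). The decoy receptor gene Tnfrsf22 was higher than in MEF by 1.84 ± 0.32 in AG-haESC and 2.09 ± 0.34 in E14 (limma adjusted p = 0.000382 and 0.000315).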
